A study of Neurospora crassa with 4 samples.

Results

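The OS-2 pathway of the filamentous fungus *Neurospora crassa*, a signalling chain that senses osmotic stress, was examined at the level of its transcripts. Its 8 genes were chosen by locus tag: the sensor *os-1*, the relay genes *hpt-1*, *rrg-1* and *rrg-2*, the kinase genes *os-4*, *os-5* and *os-2*, and the transcription factor gene *asl-1*. All 8 were measured, among 7793 genes in all. The study asked how loss of the CFIm complex, which helps to choose where an mRNA is cleaved and polyadenylated, alters poly(A) sites and gene expression. ΔCFIm (strain 2029) lacks *cpsf5* and *cpsf6*, each replaced by the hygromycin resistance gene hphR, and the control (strain 1785-1, mating type A) carries both genes. The labels give no mating type for ΔCFIm. Both strains carry a *frq* clock box luciferase reporter (cbox-luciferase) at *csr-1* with the barR resistance gene, and each genotype is represented by 1 strain (N = 2 biological replicates per genotype). Cultures grew for 72 hours at 25°C in constant light on cellophane-covered agar that held 0.25% glucose and 0.17% arginine (w/v). No added osmotic stress is described, and the values are from a single time. The paper states that aged tissue on such plates passes from high to low nutrients before 72 hours. Whether the cultures were under stress was not measured.

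In this pathway a signal passes through a phosphorelay into a mitogen-activated protein kinase (MAPK) cascade. The hybrid histidine kinase OS-1 passes phosphate to the carrier HPT-1 and on to the response regulators RRG-1 and RRG-2, and RRG-1 controls the cascade of OS-4, OS-5 and OS-2. OS-2 is related to Hog1 of *Saccharomyces cerevisiae* and drives the response to high osmolarity. In *Neurospora* the pathway also serves as an output of the circadian clock: OS-2 is phosphorylated rhythmically, and the White Collar Complex binds the promoter of *os-4*. Neither phosphorylation nor rhythms were measured here. The cultures were in constant light and sampled at a single time, whereas the paper starts its clock recordings by transfer to darkness. The values below are transcript levels only.

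Transcript levels came from 3′ End Sequencing, where a read marks the last bases of an mRNA in front of the poly(A) tail. The unit is the normalized count, the number of reads on a gene scaled so that all libraries have the same total, and 1 read was worth between 0.967 and 1.05 normalized counts. The libraries held between 5572762 and 6053869 reads assigned to genes. Duplicates correlated with a Pearson r of 0.982 (ΔCFIm) and 0.987 (control) on the log2 scale, across genes, which are not independent replicates. The deleted genes matched the labels: *cpsf5* had 3 and 0 reads in ΔCFIm against 204 and 199 in controls, and *cpsf6* had 26 and 26 reads in ΔCFIm against 134 and 165 in controls. Between ΔCFIm and control, 556 of the 6949 genes tested (8.0%) passed an adjusted p of 0.05 with limma.

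None of the 8 OS-2 pathway genes was among them. With limma, 0 of 8 passed, against 8.0% of all genes tested (4.62% higher and 3.38% lower in ΔCFIm), and 2 of the 8 had an unadjusted p under 0.05, against 22.5% of all genes tested. On the recovered reads, edgeR called 0 of the 8 genes, against 10.4% of all genes tested, and DESeq2 called 0 of the 8, against 7.25%. The percent change of the mean level in ΔCFIm ran from -23.7% (*os-5*) to 38.5% (*os-1*), with 5 positive and 3 negative log2 fold changes. The median log2 fold change was 0.04 for the 8 genes and -0.01 for all genes tested, and the median absolute log2 fold change was 0.16 against 0.24. In 4 of the 8 genes the ΔCFIm libraries did not overlap the control libraries, which was also the case in 52.4% of all genes tested. Over the 8 genes, the bounds of the 95% intervals lay between 0.575-fold and 1.78-fold of the control level, so that each interval excluded a doubling and a halving of the level. These intervals are those of single genes and are not adjusted for the number of genes.

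**Figure D1:**
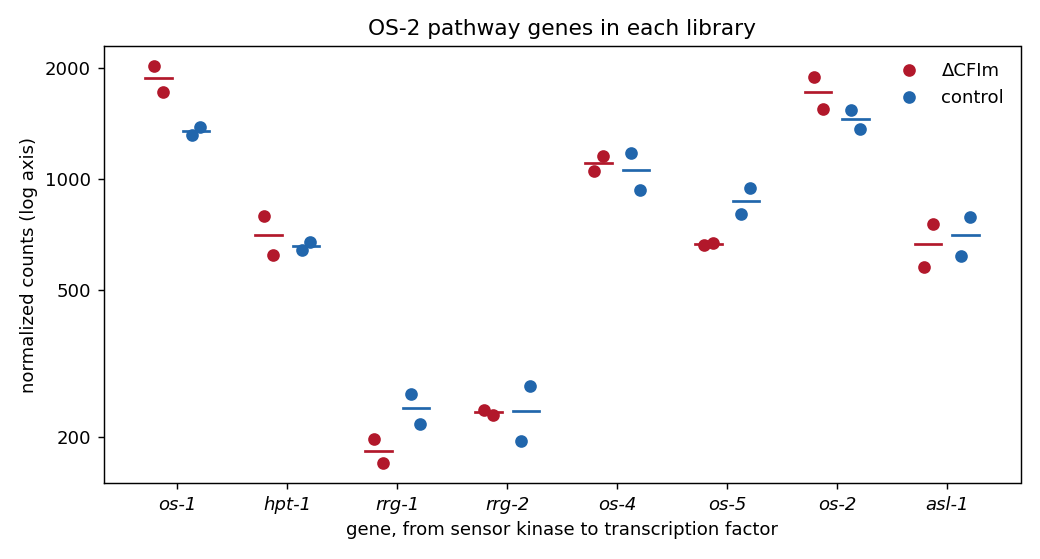
Normalized counts (log axis) of the 8 OS-2 pathway genes in each ΔCFIm and control library, with points for libraries and a line for the mean of 2. The ΔCFIm libraries lie above both controls for *os-1* and *os-2*, lie below both for *rrg-1* and *os-5*, and overlap them for the other 4 genes.

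The sensor had the largest difference of the 8 genes. *os-1* (NCU02815, linkage group I, 9024259 to 9030833 in the NC12 genome) encodes the hybrid histidine kinase at the head of the chain, whose loss makes *Neurospora* sensitive to high osmolarity. Replicates 1 and 2 of ΔCFIm held 2033 and 1724 normalized counts, against 1322 and 1391 in replicates 1 and 2 of the control. Both ΔCFIm libraries were above both controls. The means were 1879 ± 219 in ΔCFIm and 1357 ± 48.7 in controls (SD, N = 2), which gave a log2 fold change of 0.46 (SE 0.17, 95% interval 0.10 to 0.83). The unadjusted p was 0.0175, and the adjusted p from limma was 0.119, so *os-1* did not pass. Of all genes tested, 23.3% had a larger absolute change. Without ΔCFIm replicate 2, *os-1* passed with a log2 fold change of 0.58 and an adjusted p of 0.0226, but this fit rests on a single ΔCFIm library, assumed to vary like the controls, and called 16.1% of all genes. Without ΔCFIm replicate 1 the log2 fold change was 0.35 (adjusted p = 0.229).

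The relay genes did not pass the threshold. *hpt-1* (NCU01489, linkage group II, 3299470 to 3301459), which encodes the histidine phosphotransfer protein that carries phosphate to the response regulators, had 795 and 622 normalized counts in ΔCFIm, against 643 and 678 in controls. The controls lay within the range of the ΔCFIm libraries. The log2 fold change of 0.09 (SE 0.18, 95% interval -0.30 to 0.48) did not reach its standard error (adjusted p = 0.812 from limma). It was -0.09 without ΔCFIm replicate 1, so its direction rested on that library.

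The response regulator genes were the least abundant of the 8. *rrg-1* (NCU01895, linkage group I, 2113962 to 2118659) encodes the regulator that acts on the MAPK cascade, related to Ssk1 of *S. cerevisiae*. It had 198 and 170 normalized counts in ΔCFIm, against 262 and 218 in controls. Both ΔCFIm libraries were below both controls, and the means were 184 ± 19.7 in ΔCFIm and 240 ± 31.1 in controls (SD, N = 2). The log2 fold change was -0.38 (SE 0.19, 95% interval -0.80 to 0.04) with an adjusted p of 0.275 from limma. *rrg-2* (NCU02413, linkage group VII, 2581086 to 2584933) encodes the other regulator, a DNA-binding protein related to Skn7 of *S. cerevisiae*. It had 237 and 230 normalized counts in ΔCFIm, against 195 and 275 in controls. The ΔCFIm libraries lay between the controls, with a log2 fold change of 0.01 (SE 0.20, 95% interval -0.43 to 0.45; adjusted p = 0.983). The sign of this value reversed with edgeR and with DESeq2. Leaving out single libraries moved it between -0.23 and 0.26, the lowest without control replicate 1 and the highest without control replicate 2.

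**Figure D2:**
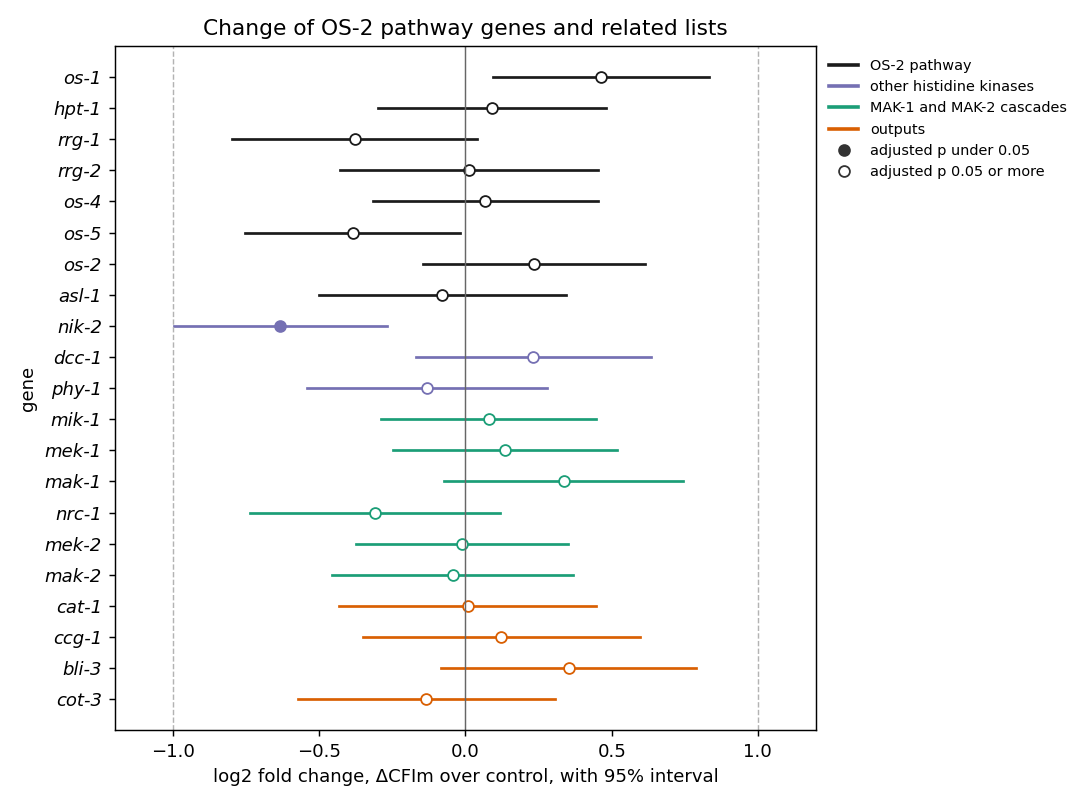
Log2 fold change of each gene in ΔCFIm over control (points) with its 95% interval (lines) for the 8 OS-2 pathway genes, then other histidine kinase genes, the kinase genes of the MAK-1 and MAK-2 cascades, and outputs, with dashed lines at a halving and a doubling. Filled points passed an adjusted p of 0.05 with limma, which only *nik-2* of the genes drawn did.

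The kinase genes of the cascade did not pass the threshold either. *os-4* (NCU03071, linkage group I, 4442191 to 4448082) encodes the MAPK kinase kinase that receives the signal from RRG-1. It had 1055 and 1154 normalized counts in ΔCFIm, against 1180 and 939 in controls, and the ΔCFIm libraries lay between the controls. The log2 fold change was 0.07 (SE 0.18, 95% interval -0.32 to 0.45; adjusted p = 0.863 from limma), and it was -0.10 without control replicate 2.

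*os-5* (NCU00587, linkage group I, 7913654 to 7917043) encodes the MAPK kinase between OS-4 and OS-2, related to Pbs2 of *S. cerevisiae*. It had 666 and 671 normalized counts in ΔCFIm, against 808 and 946 in controls. Both ΔCFIm libraries were below both controls, with means of 669 ± 3.62 in ΔCFIm and 877 ± 97.5 in controls (SD, N = 2). The log2 fold change was -0.39 (SE 0.17, 95% interval -0.75 to -0.02). Its unadjusted p of 0.0415 did not hold after adjustment (adjusted p = 0.201 from limma).

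*os-2* (NCU07024, linkage group IV, 4948586 to 4952179) encodes the MAPK itself. It had 1891 and 1556 normalized counts in ΔCFIm, against 1546 and 1374 in controls. Both ΔCFIm libraries were above both controls, but ΔCFIm replicate 2 exceeded control replicate 1 by less than either genotype's duplicates differed. The means were 1723 ± 237 in ΔCFIm and 1460 ± 122 in controls (SD, N = 2), which gave a log2 fold change of 0.24 (SE 0.18, 95% interval -0.15 to 0.62; adjusted p = 0.474 from limma).

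The transcription factor gene varied more between duplicates than between genotypes. *asl-1* (NCU01345, linkage group V, 3718339 to 3721921) encodes a bZIP protein related to Atf1 of *Schizosaccharomyces pombe* that acts downstream of OS-2. It had 579 and 759 normalized counts in ΔCFIm, against 620 and 792 in controls. The lower and the higher library of each genotype were close to those of the other, and replicate 1 was the lower in both genotypes. The log2 fold change was -0.08 (SE 0.20, 95% interval -0.50 to 0.34; adjusted p = 0.856 from limma), and it turned positive without ΔCFIm replicate 1 (0.12) and without control replicate 2 (0.10).

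The order of the levels was then compared within each genotype. Because each mRNA molecule can give a read only at its 3′ end, these levels were not divided by gene length. In ΔCFIm the mean normalized counts ran from 1879 (*os-1*) through *os-2* (1723), *os-4* (1105), *hpt-1* (709), *asl-1* (669), *os-5* (669) and *rrg-2* (233) to *rrg-1* (184). In controls the order was *os-2* (1460), *os-1* (1357), *os-4* (1060), *os-5* (877), *asl-1* (706), *hpt-1* (660), *rrg-1* (240) and *rrg-2* (235). Neighbours in these orders often overlapped. In ΔCFIm the libraries of *os-1* and *os-2* overlapped, and so did those of *hpt-1*, *asl-1* and *os-5* in turn, while in controls *os-2* overlapped *os-1*, *os-4* overlapped *os-5*, *asl-1* overlapped *hpt-1* and *rrg-1* overlapped *rrg-2*. *os-1*, *os-2* and *os-4* thus had the highest means in both genotypes. Over the 4 libraries, the mean level of *os-1* exceeded that of 92.7% of the 7793 genes, while *rrg-1* lay close to the middle of the table, above 51.1% of them.

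The make-up of the pathway's transcripts was examined as shares of the summed counts of the 8 genes, which do not depend on the scaling between libraries. The sums were 7455 and 6885 normalized counts in ΔCFIm, against 6576 and 6611 in controls. *os-1* made up 27.3% and 25.0% of the sum in ΔCFIm, against 20.1% and 21.0% in controls. *os-5* made up 8.93% and 9.75% in ΔCFIm, against 12.3% and 14.3% in controls. *rrg-1* made up 2.65% and 2.47% in ΔCFIm, against 3.98% and 3.29% in controls. The genotypes did not overlap in these shares, which were not tested. Shares have a fixed total, so a higher share of *os-1* lowers those of other genes, and the shares are not separate observations. Levels, a different measure, did not overlap in 52.4% of all genes tested. The share of *os-2* was 25.4% and 22.6% in ΔCFIm, against 23.5% and 20.8% in controls, and the genotypes overlapped. The number of *os-1* reads per *os-5* read, a ratio chosen after the values were seen and given without a test, was 3.05 and 2.57 in ΔCFIm and 1.64 and 1.47 in controls.

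**Figure D3:**
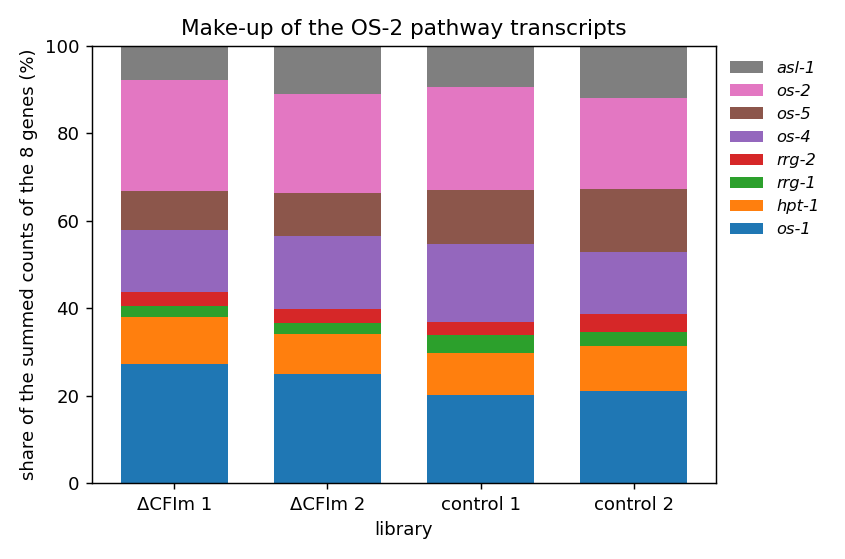
Share of each OS-2 pathway gene in the summed normalized counts of the 8 genes, in percent, for each ΔCFIm and control library. The *os-1* share is 27.3% and 25.0% in the ΔCFIm libraries and 20.1% and 21.0% in the controls, and the *os-5* share is 8.93% and 9.75% in ΔCFIm and 12.3% and 14.3% in the controls.

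The spread between duplicates set the limit of these comparisons. The members had between 170 and 2058 reads in a library. Duplicates differed by between 1.01-fold and 1.41-fold, the least for *os-5* in ΔCFIm and the most for *rrg-2* in controls. Of the 16 differences between duplicates, 11 exceeded 2 standard deviations of counting error, in both genotypes for *os-4*, *os-2* and *asl-1*. Counting error assumes that reads are independent molecules, which PCR copies are not. In ΔCFIm, 5 of the 8 genes were higher in replicate 1 than in replicate 2, among them *os-1*, *hpt-1* and *os-2*. In controls, 3 of the 8 were higher in replicate 1.

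**Figure D4:**
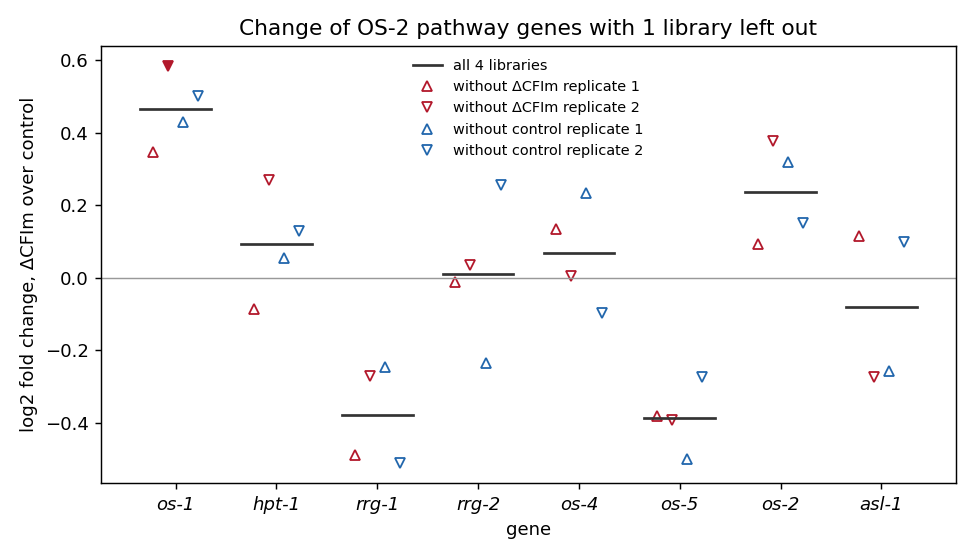
Log2 fold change of each OS-2 pathway gene in ΔCFIm over control with all 4 libraries (lines) and with 1 library left out (triangles), filled where the adjusted p from limma was under 0.05. Only *os-1* without ΔCFIm replicate 2 passed, and the values of *hpt-1*, *rrg-2*, *os-4* and *asl-1* fall on both sides of 0.

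Plate cultures in light also form asexual spores (conidia), whose markers were examined in the same libraries. Of the 5 conidial markers, 0 passed the threshold with limma, edgeR or DESeq2 (8.0%, 10.4% and 7.25% of all genes tested), 1 had an unadjusted p under 0.05 (*con-8*, against 22.5% of all genes tested), and 0 were at zero reads in any library. The summed level of the markers was 733655 and 747954 normalized counts in ΔCFIm, against 753437 and 763560 in controls, most of it from *eas*, which encodes the hydrophobin of the spore coat. Without *eas* the sums were 122179 and 202679 in ΔCFIm, against 190494 and 179308 in controls. ΔCFIm replicate 1 was thus the lowest of the 4 libraries. It had 34801 normalized counts of *con-8* and 52848 of *con-10*, against 57359 and 103957 in ΔCFIm replicate 2, and 4 of the 5 markers were lower in replicate 1 than in replicate 2. In controls, *con-8* had 64873 and 75140 normalized counts and *con-10* had 89366 and 69319. The log2 fold change of *con-8* was -0.64 (adjusted p = 0.176 from limma). It was -1.004 without ΔCFIm replicate 2, which passed the threshold, and -0.28 without ΔCFIm replicate 1, which did not. Each of these fits rests on a single ΔCFIm library. The other markers had log2 fold changes of 0.01 (*eas*), 0.08 (*con-6*), -0.09 (*con-10*) and 0.15 (*fl*, which encodes a transcription factor for spore formation). ΔCFIm replicate 1 had the lowest normalized counts of the 4 libraries for *con-6*, *con-8* and *con-10*, but not for *fl*. For *eas* it had the highest, 611476, against 545275 in ΔCFIm replicate 2 and 562943 and 584252 in controls. The same library had the highest counts of *os-1*, *hpt-1* and *os-2*, and the lowest of *os-5* and *asl-1*. The part of spore content in these values was not tested. In such bulk cultures, fewer cells of a type and less RNA per cell cannot be told apart.

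Related genes were compared in the same fit. Of the other histidine kinase genes, 3 of 4 were tested, and *phy-2* was not analysed here. Of these, 1 passed, against 8.0% of all genes tested (3.38% called lower in ΔCFIm). *nik-2* (NCU01833), which encodes a further hybrid histidine kinase, fell to 390 and 382 normalized counts in ΔCFIm, against 583 and 617 in controls. Its log2 fold change was -0.63 (SE 0.17, 95% interval -0.998 to -0.27, adjusted p = 0.0359 from limma). The call was lost without a filter on low values (adjusted p = 0.116 from limma) and with eBayes fitted without a trend (0.0852). It held in the other alternatives with all 4 libraries, among them edgeR (adjusted p = 0.0199) and DESeq2 (0.0364). It was lost without control replicate 1 (log2 fold change -0.67) and without control replicate 2 (-0.59). The log2 fold change was -0.65 without ΔCFIm replicate 1 and -0.62 without ΔCFIm replicate 2. *dcc-1*, a histidine kinase gene linked to spore formation and carotenoids, had a log2 fold change of 0.23 (adjusted p = 0.508). Whether *nik-2* and *os-1* differ in their change was not tested.

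Of the 6 kinase genes of the MAK-1 and MAK-2 cascades, 0 passed with limma, edgeR or DESeq2 (8.0%, 10.4% and 7.25% of all genes tested), and 0 had an unadjusted p under 0.05 (22.5% of all genes tested). The largest log2 fold changes were 0.34 for *mak-1*, the MAPK gene of cell wall integrity (adjusted p = 0.326), and -0.31 for *nrc-1*, the MAPK kinase kinase gene of cell fusion (adjusted p = 0.390). The value of *mak-1* was 0.55 without ΔCFIm replicate 2, which passed the threshold, and 0.12 without ΔCFIm replicate 1, which did not. Each of these fits rests on a single ΔCFIm library. All 6 had intervals that excluded a doubling and a halving, as the OS-2 pathway genes did.

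Genes listed as outputs downstream of OS-2 or ASL-1 were examined last, at the level of transcripts only. Whether the transcript level of each depends on the pathway was not tested. Of the 4 outputs (*cat-1*, *ccg-1*, *bli-3* and *cot-3*), 0 passed with limma, edgeR or DESeq2 (8.0%, 10.4% and 7.25% of all genes tested), and 0 had an unadjusted p under 0.05 (22.5% of all genes tested). *bli-3*, a gene induced by blue light, had 6817 and 9593 normalized counts in ΔCFIm, against 6332 and 6329 in controls. Its duplicates agreed closely in controls and differed in ΔCFIm, with a log2 fold change of 0.35 (adjusted p = 0.330). Without ΔCFIm replicate 1 it passed (0.60, adjusted p = 0.0258), in a fit that rests on a single ΔCFIm library, assumed to vary like the controls, and that called 10.3% of all genes. *cot-3*, which encodes the translation elongation factor eEF2, had 24614 and 22237 normalized counts in ΔCFIm, against 25596 and 25751 in controls, a log2 fold change of -0.13 (adjusted p = 0.752). *cat-1*, a catalase gene abundant in conidia, had 6084 and 8637 normalized counts in ΔCFIm, against 6997 and 7425 in controls, and *ccg-1*, a clock-controlled gene, had 35112 and 39361 in ΔCFIm, against 31528 and 36979 in controls.

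Reads were counted on annotated genes, which touches some members. In the NC12 annotation, *hpt-1* overlaps NCU01488 by 323 bases at its higher coordinate, 3301459. *asl-1* overlaps NCU01346 by 318 bases at its higher coordinate, 3721921. The lower coordinate of *hpt-1* lies 3 bases from NCU01490. NCU01488, NCU01490 and NCU01346 are not among the 7793 genes with values. The other 6 genes overlap no annotated gene. The annotation used here gives no strand, so which of these ends is the 3′ end is not known. The strand setting of the counting is not given in the sources used here either. Reads in the overlaps may have been left out or shared. Reads past the annotated end of a gene may likewise be missing from its count, and the positions of poly(A) sites were not analysed here.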

How the data were processed

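The authors made strand-specific libraries (Lexogen QuantSeq 3′ REV) from 2 ΔCFIm and 2 control cultures. They checked reads with FastQC, aligned them to the NC12 genome with STAR, used HTSeq-count to count reads per gene, and scaled the counts to library size. The deposited values are therefore a normalized signal, reads multiplied by 1 factor per library. Division by the value of a single read gave whole numbers for 100% of the values (tolerance 1e-06), so reads were recovered. Samples were grouped by the genotype in their titles. All 7793 genes but 1 matched the NC12 annotation (7792) in RefSeq, which gave symbols and coordinates.

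In R version 4.3.3, limma version 3.58.1 (eBayes with a trend) was run on log2(normalized count + 1) of the 6949 genes whose mean reached 10, with Benjamini-Hochberg adjustment over all of them. With 2 libraries against 2, the smallest two-sided p of an exact permutation test is 0.333. Alternatives were pseudocounts of 0.1 and 5, no filter, a mean of at least 50, median-of-ratios scaling, the replicate number as a block, eBayes without a trend, edgeR version 4.0.16 and DESeq2 version 1.42.0 on recovered reads, and each library left out. The members and lists were chosen with earlier results of these data known. Named genes were the members, the deleted genes, the markers, and in each related list the genes that passed and the 2 with the largest absolute change. *cat-1* and *ccg-1* were added after their values had been seen. A list of glycerol genes, planned by product name, was not used here.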

Additional observations from a re-analysis of the deposited data

How the results depend on the processing

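Of 104 values of the 8 genes under an alternative, 95 kept their direction and their side of the threshold, as did 213 of 234 for the related genes and markers. No alternative with all 4 libraries called an OS-2 pathway gene, and the adjusted p of *os-1* ranged from 0.0579 (replicate block) to 0.208. Among these alternatives only the sign of *rrg-2* reversed, to -0.011 with edgeR and -0.0090 with DESeq2. With 1 library left out, 0 to 1 of the 8 genes passed, and log2 fold changes ranged from 0.35 to 0.58 (*os-1*), -0.085 to 0.27 (*hpt-1*), -0.51 to -0.25 (*rrg-1*), -0.23 to 0.26 (*rrg-2*), -0.10 to 0.23 (*os-4*), -0.50 to -0.27 (*os-5*), 0.09 to 0.38 (*os-2*) and -0.27 to 0.12 (*asl-1*). Where the genotypes do not overlap, leaving out a library cannot turn the sign. Among the related genes and markers, signs reversed only with a library left out, with ranges of -0.076 to 0.051 (*mek-2*), -0.22 to 0.14 (*mak-2*), -0.24 to 0.26 (*cat-1*), -0.073 to 0.093 (*eas*), -0.57 to 0.40 (*con-10*), -0.030 to 0.30 (*mek-1*), -0.0047 to 0.16 (*mik-1*), -0.044 to 0.21 (*con-6*) and -0.016 to 0.31 (*fl*). The number of genes called moved from 556 to 30 without a filter, of which 5 were among the 556, to 890 with the replicate block, and to between 338 and 1116 with a library left out (the lowest without control replicate 2, the highest without ΔCFIm replicate 2). The cause was not tested. The deviations of same-numbered libraries from their genotype means correlated weakly (Pearson's r = 0.137, Spearman's rho = 0.160 across genes), and no source says what the number stands for. With the block, 0 of the 8 genes passed. At this depth and spread, the standard errors of 0.17 to 0.20 on the log2 scale limit what could be called.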
